A study of Homo sapiens with 36 samples.

Results

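DNA methyltransferase and TET1 transcripts were read in the established human embryonic stem cell line HUES6, with and without the RNA-binding protein RBPMS. The members were 9 Ensembl transcript IDs chosen by name, out of 223367 in the table: 2 of DNMT1, 2 of DNMT3A, 3 of DNMT3B, 1 of DNMT3L and 1 of TET1. The rule that lists them uses no measured value. The WT group was unmodified HUES6 and the KO group was HUES6 with the genotype RBPMS KO, and both were grown in FTDA medium and given cycloheximide, which holds ribosomes on mRNA, at 100 ng/ml for 5 min. Each of 3 WT and 3 KO cultures gave a whole-cell Input library and 5 libraries from a polysome gradient, which separates mRNAs by how many ribosomes they carry: 40S, 80S, disome, Polysome1 and Polysome2, 36 libraries in all. The sources used here do not give whether the KO cultures came from 1 clone or several, or whether the cultures of a genotype were grown separately, so p-values measure only the spread between these libraries.

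DNA methylation is laid down on unmarked DNA by the de novo enzymes DNMT3A and DNMT3B and copied to the new strand after replication by DNMT1, the maintenance enzyme. DNMT3L has no catalytic activity of its own and stimulates the DNMT3 enzymes. TET1 oxidises 5-methylcytosine to 5-hydroxymethylcytosine, a step towards its removal. Pluripotent stem cells are known for high DNMT3B and TET1, and DNMT3B is alternatively spliced, with isoforms that differ between pluripotent and differentiated cells and include forms without catalytic activity. The files do not say which isoform each ID encodes, so the IDs are given as listed.

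Levels are TPM, an abundance per transcript length scaled to a total of 1000000 in each library. Equal amounts of RNA went into each library, so a level is a share of a fraction and not an amount. In bulk RNA, fewer cells that express a gene and less RNA per cell cannot be told apart. Sequencing depth is unknown, and a 0 is a listed estimate. Estimates for IDs of 1 gene share sequence and can be split between them. The sum over a gene's listed IDs was therefore also tested as 1 value. Any other transcript IDs of these genes were not read, so gene levels and ranks here cover the listed IDs alone. Differences are log2(TPM + 1), which understates changes of low transcripts. They were tested with limma, and calls mean an adjusted p (Benjamini-Hochberg over 51055 rows) under 0.05. A transcript was tested if it reached 1 TPM in at least 3 libraries, which 6 of the 9 IDs did.

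KO replicates 1 and 2 stood apart from the other libraries. Over all tested transcripts Pearson's r with the mean of the WT Input libraries was 0.462 and 0.590 for their Input libraries and 0.911 for that of KO replicate 3, and with the mean of WT disome it was 0.717 and 0.834 for the first pair. Their gradient libraries stood apart too. For Polysome2, r with the mean of WT Polysome2 was 0.538 and 0.617 in KO replicates 1 and 2 and 0.916 in KO replicate 3. The number of transcripts at 1 TPM ranged from 8956, in WT 40S replicate 3, to 38389. In the disome library of KO replicate 1, 10 transcripts took 70.5% of all TPM. In Input the top 10 took 42.5%, 26.7% and 17.85% in KO replicates 1 to 3, against 13.5% to 19.4% in WT. These KO Input libraries had 18666, 21914 and 31380 transcripts at 1 TPM, against 34899 to 38389 in WT Input. In its label, the Input sample of KO replicate 3 is numbered differently from the other Input samples. The part of these differences in the results was not tested, so KO results are also given without KO replicates 1 and 2. That leaves 1 KO library in each fraction, KO replicate 3, whose spread is taken from the other groups. Such a value describes that library, and a call that ends there does not show that there is no difference. The level of RBPMS and the stem cell markers were not analysed here, since no table used here pairs transcript IDs with those names.

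DNMT3B, a de novo methyltransferase, was by listed IDs the most abundant of the 5 genes in all 12 groups, without overlap with the next gene. Its 3 IDs summed to 262 ± 34.4 TPM in WT Input (SD, n = 3), against 12.5 ± 1.30 TPM for DNMT1, 4.98 TPM for TET1, 2.53 ± 0.99 TPM for DNMT3A and 0.075 TPM for DNMT3L. In WT Input the order DNMT3B, DNMT1, TET1, DNMT3A, DNMT3L held without overlap except between TET1 and DNMT3A. In KO Input the same order of means had DNMT1, TET1 and DNMT3A overlapping, at 1.36, 1.06 and 0.880 TPM. In Polysome2 the WT means of DNMT1 (1.61 TPM), DNMT3A (1.56 TPM) and TET1 (1.38 TPM) overlapped, and the same 3 genes overlapped between neighbours in KO Polysome2, in the order DNMT3A (3.0 TPM), TET1 (2.64 TPM) and DNMT1 (0.753 TPM).

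The abundant DNMT3B ID of WT Input was ENST00000328111. WT Input replicates 1 to 3 had 217, 246 and 283 TPM of it, and KO Input had 0.652, 2.31 and 186 TPM. All 3 KO libraries were below all WT libraries, KO replicates 1 and 2 by far the most. The log2 difference between KO and WT was -4.62 (SE 1.40, limma adjusted p = 0.01925), in a comparison where 20.0% of all tested rows were called. With KO replicates 1 and 2 left out, which leaves 1 KO library, the difference was -0.41 (SE 1.07, limma adjusted p = 1). Leaving out any single WT culture, KO replicate 1 or KO replicate 2 also ended the call, at -4.71 to -3.32 (limma adjusted p = 0.07139 to 0.1994). With the 6 Input libraries alone in the fit, the difference of -4.62 had a limma adjusted p of 0.1603.

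The second DNMT3B ID, ENST00000353855, was low in WT Input and high in the ribosome-bound fractions. Its WT Input levels were 0.022, 6.20 and 0.761 TPM. In WT Polysome2 they were 77.9, 115 and 42.0 TPM, all above all WT Input values. In KO Polysome2 they were 6.81, 0.073 and 212 TPM. KO replicates 1 and 2 were below, and KO replicate 3 above, all 3 WT libraries, so the KO group straddled WT, and the log2 difference of -2.60 was not called (SE 1.58, limma adjusted p = 0.2972). In KO replicate 3 alone it was 1.54.

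The third ID, ENST00000348286, had the opposite pattern across KO cultures. Input libraries of WT had 9.37, 12.1 and 11.6 TPM of it, and those of KO had 84.6, 73.6 and 7.84 TPM. Polysome2 libraries had 9.37, 14.8 and 7.61 TPM in WT and 158, 131 and 11.5 TPM in KO. KO replicates 1 and 2 were above all WT libraries in both, while KO replicate 3 was below all WT libraries in Input and within their range in Polysome2. The KO minus WT log2 differences were 1.68 in Input (SE 1.06, limma adjusted p = 0.2651) and 2.51 in Polysome2 (SE 1.06, limma adjusted p = 0.1356), neither called. After ERCC spike-in scaling both turned, to -1.18 and -2.70, and in KO replicate 3 alone they were -0.44 and 0.16.

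**Figure D1:**
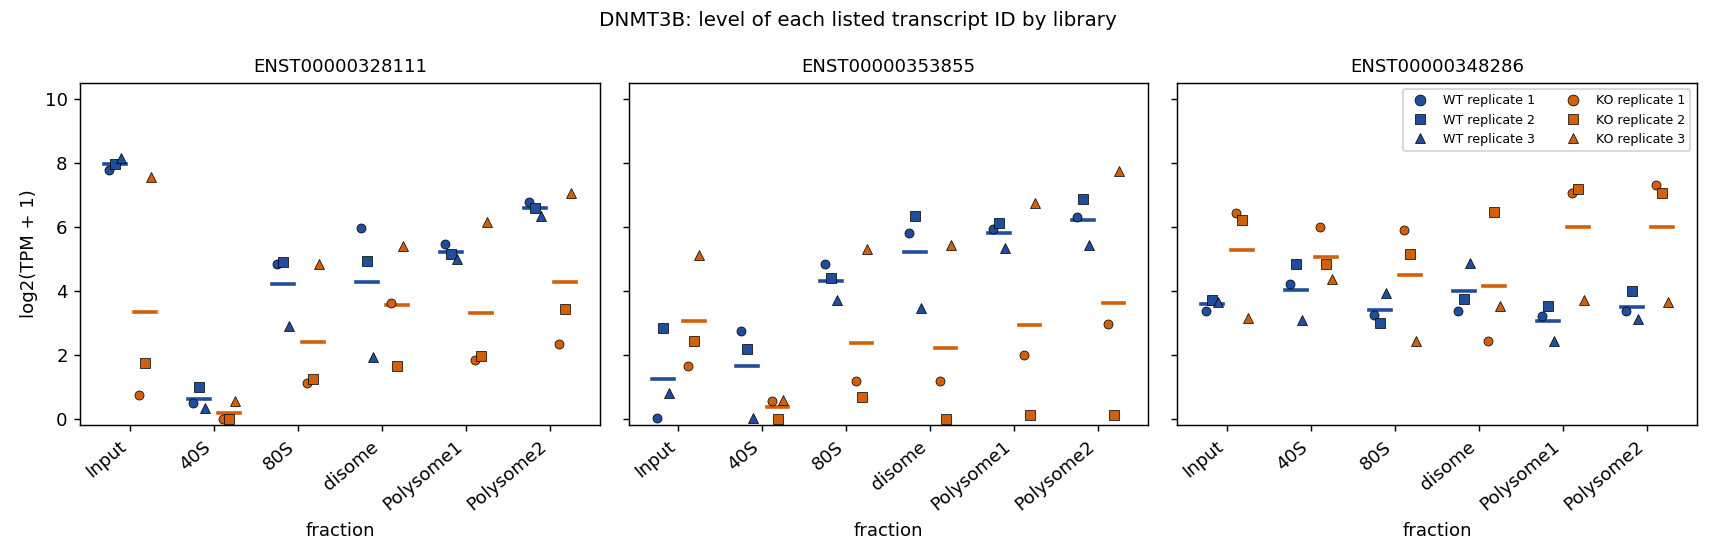
Level of the 3 listed DNMT3B transcript IDs in each library, as log2(TPM + 1) on the vertical axis, by fraction; blue points are WT, orange points are KO, shapes are replicates and bars are group means. KO replicates 1 and 2 sit at 0.652 and 2.31 TPM of ENST00000328111 in Input, where KO replicate 3 is at 186 TPM, and at 84.6 and 73.6 TPM of ENST00000348286, where it is at 7.84 TPM.

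Read by culture, the exchange between the DNMT3B IDs extended over the gradient. ENST00000328111 was below all WT libraries in 5 of 6 fractions in KO replicate 1 and in 6 of 6 in KO replicate 2. KO replicate 3 was below them in 1, Input, and above them in 2, Polysome1 and Polysome2. ENST00000353855 was below all WT libraries in 4 fractions in KO replicate 1 and in 5 in KO replicate 2, and above them in 4 in KO replicate 3. ENST00000348286 was above all WT libraries in 5 fractions in KO replicate 1 and in 6 in KO replicate 2. The exception in KO replicate 1 was the disome library for both ENST00000328111 (11.3 TPM, against 61.0, 29.5 and 2.81 TPM in WT) and ENST00000348286 (4.38 TPM, against 9.28, 12.5 and 28.1 TPM in WT). That is the library with 70.5% of its TPM in 10 transcripts. The 6 libraries of a culture are not independent of each other, so these counts describe cultures. KO replicates 1 and 2 stood apart over all tested transcripts, and the share of all rows outside the WT range was not counted. The counts are therefore not shown to be particular to DNMT3B.

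As shares of the listed DNMT3B sum, the IDs changed places. ENST00000328111 held 95.9%, 93.0% and 95.8% of the sum in WT Input and 0.746%, 2.88% and 81.8% in KO Input. ENST00000348286 held 4.14%, 4.60% and 3.92% in WT Input and 96.8%, 91.6% and 3.44% in KO Input. For ENST00000328111 the KO and WT shares did not overlap in Input, but the exact two-sided permutation p was 0.1, the smallest that 3 against 3 can give (adjusted 0.5647 over 24 share tests). In Polysome2 its share was 53.2% ± 9.82 in WT and 15.6% ± 18.9 in KO (SD, n = 3; exact permutation p = 0.1, adjusted 0.5647), again without overlap. No share passed the adjusted threshold, and at this group size none could.

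Along the WT gradient the makeup of the DNMT3B sum differed as well. The share of ENST00000353855 was 0.872% ± 1.28 in Input, 38.8% ± 4.02 in 80S, 55.8% ± 4.05 in Polysome1 and 41.1% ± 9.35 in Polysome2 (SD, n = 3). In 40S, ENST00000348286 held 85.5% ± 11.2 of the sum in WT and 98.2% ± 2.50 in KO (SD, n = 3), since the other IDs were low there. WT replicate 3 differed from the other WT cultures in the middle of the gradient. There ENST00000348286 held 43.6% of the 80S sum and 68.8% of the disome sum, against at most 13.2% in these fractions of WT replicates 1 and 2.

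**Figure D2:**
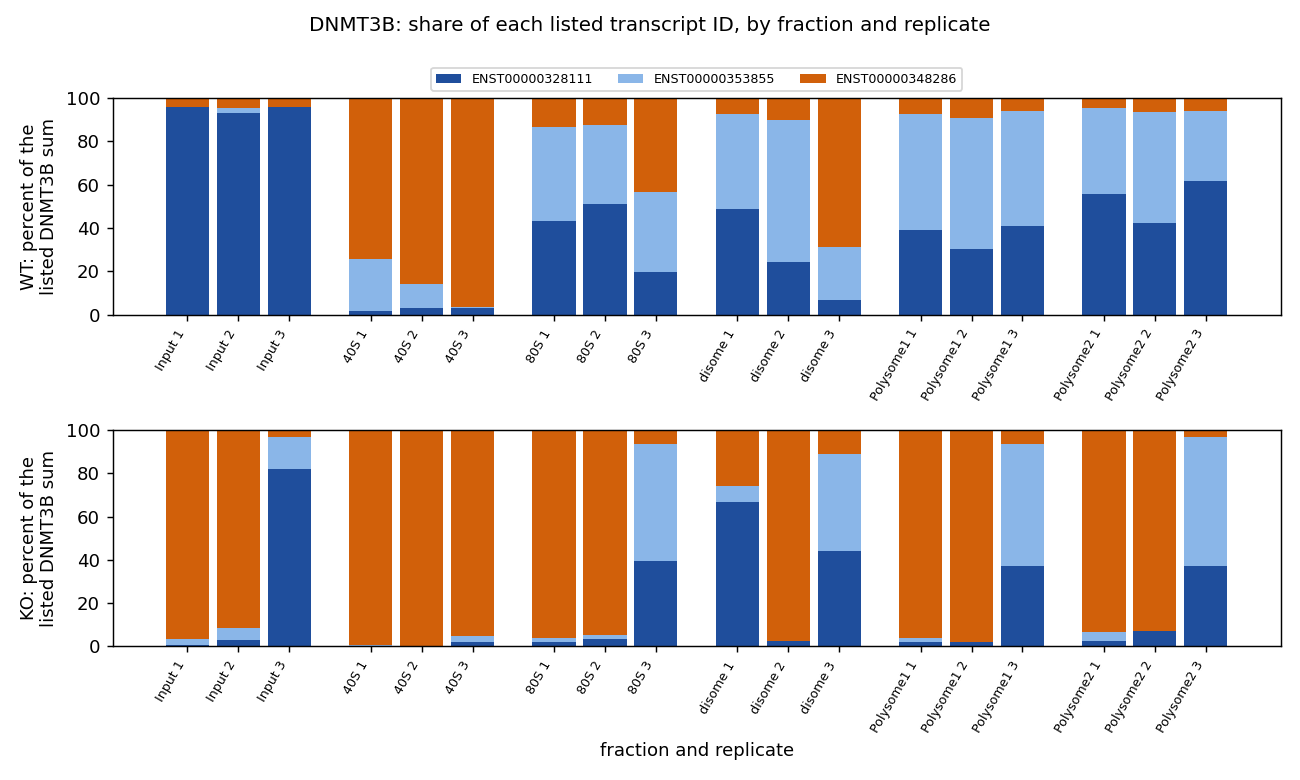
Share of each listed ID in the DNMT3B sum, in percent on the vertical axis, with 1 stacked bar per library, WT above and KO below. ENST00000348286 makes up 96.8% and 91.6% of KO Input replicates 1 and 2 and 3.44% of KO Input replicate 3, against 3.92% to 4.60% in WT Input.

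The summed DNMT3B level moved less than its IDs. The Input sums were 226, 264 and 295 TPM in WT, against 87.4, 80.3 and 228 TPM in KO. The lower KO values were those of replicates 1 and 2, and KO replicate 3 lay within the WT range. The log2 difference was -1.15 (SE 0.64, limma adjusted p = 0.2063), not called, and -0.19 without KO replicates 1 and 2 (SE 0.73, limma adjusted p = 1). In Polysome1 the sums were 112, 113 and 74.7 TPM in WT and 138, 148 and 187 TPM in KO, which did not overlap, in a comparison where 5.42% of rows were called. The difference of 0.67 was not called (SE 0.64, limma adjusted p = 0.5029), was 0.93 in KO replicate 3 alone, and turned to -3.58 after ERCC scaling. In Polysome2 the sums overlapped, at 197, 226 and 129 TPM in WT and 169, 141 and 356 TPM in KO.

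DNMT3A, the other de novo methyltransferase, was low. ENST00000264709 had Input levels of 1.46, 1.90 and 3.33 TPM in WT, against 1.05, 0.488 and 1.10 TPM in KO. All KO values were below all WT values, and here KO replicates 1 and 3 had like levels. The log2 difference was -0.76 (SE 0.39, limma adjusted p = 0.1689), and that of the DNMT3A sum was -0.89 (SE 0.38, limma adjusted p = 0.09828), neither called. In KO replicate 3 alone they were -0.58 and -0.71. In Polysome2 ENST00000264709 was at 1.06, 1.70 and 1.91 TPM in WT and 5.82, 1.27 and 1.63 TPM in KO, with KO replicate 1 above the other 5 libraries. The second DNMT3A ID, ENST00000321117, stayed at or below 0.484 TPM and was not tested. It was above 0 in 11 libraries, including all 3 WT Input libraries (0.176, 0.468 and 0.256 TPM), and was listed at 0 in all 3 KO Input libraries.

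DNMT3L, the stimulating partner of the DNMT3 enzymes, was near 0. Its ID ENST00000270172 was above 0 in 14 of 36 libraries, with a highest value of 0.226 TPM, in WT Input replicate 2. It was listed at 0 in every 40S library. It was not tested, and the KO and WT libraries overlapped in each fraction.

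DNMT1, the maintenance methyltransferase, had its highest level in Input in each WT culture and in KO replicate 3. In KO replicates 1 and 2 it was listed at 0 in Input, and its highest value was 0.12 TPM, in 80S of KO replicate 2. ENST00000340748 had Input levels of 11.5, 11.3 and 13.9 TPM in WT, against 0, 0 and 4.08 TPM in KO. No KO library reached the lowest WT library. The KO minus WT difference of -2.94 was called (SE 0.54, limma adjusted p = 0.0002467), as was that of -2.97 for the sum with the second ID (SE 0.56, limma adjusted p = 0.0002784). Once KO replicates 1 and 2 were removed, the sum differed by -1.41 (SE 0.69, limma adjusted p = 0.6031), which was not called. The call held with any single culture left out. With the 6 Input libraries alone in the fit, the sum had a limma adjusted p of 0.0936. The second ID, ENST00000359526, was at 0.839 TPM in WT Input replicate 1 and 0.885 TPM in WT Polysome1 replicate 3. Elsewhere it was at or near 0, and it was listed at 0 in all 18 KO libraries.

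In the gradient, ENST00000340748 was listed at 0 in all 6 libraries of 40S. In WT it was at 4.59, 0.851 and 0.332 TPM in disome, 1.33, 0.108 and 1.73 TPM in Polysome1 and 2.20, 0.565 and 2.07 TPM in Polysome2. In KO replicates 1 and 2 it was listed at 0 in Polysome1 and Polysome2, while KO replicate 3 had 0.990 and 2.26 TPM. KO replicate 3 was thus within the WT range in Polysome1 and above it in Polysome2. The KO minus WT difference in Polysome2 was -0.75 (SE 0.54, limma adjusted p = 0.3913), and 0.39 in KO replicate 3 alone. Without KO replicate 3 it was -1.31 (SE 0.43, limma adjusted p = 0.02136), a call that describes KO replicates 1 and 2 alone.

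TET1, the 5-methylcytosine oxidase, was lower in KO Input with less difference between KO cultures. ENST00000373644 had Input levels of 3.52, 4.0 and 7.41 TPM in WT, against 0.607, 0.808 and 1.77 TPM in KO. The groups did not overlap, and KO replicate 3 was the highest KO library. The ratio of WT to KO mean TPM was 4.69, and the log2 difference was -1.52 (SE 0.39, limma adjusted p = 0.006258). Without KO replicates 1 and 2 it was -1.06 (SE 0.58, limma adjusted p = 0.6921), and after quantile normalization and median-of-ratios scaling it was -0.82 and -1.0, not called. The call also ended without WT replicate 3 (-1.25), KO replicate 1 (-1.36) or KO replicate 2 (-1.45), with limma adjusted p = 0.06273, 0.06002 and 0.06404. With the 6 Input libraries alone in the fit, the limma adjusted p was 0.1175. In Polysome2 TET1 was at 1.51, 1.16 and 1.46 TPM in WT and 2.99, 1.50 and 3.44 TPM in KO. The KO values were higher with overlap only through KO replicate 2, and the difference of 0.58 was not called (SE 0.39, limma adjusted p = 0.3504), was 0.91 in KO replicate 3 alone and turned to -3.27 after ERCC scaling.

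**Figure D3:**
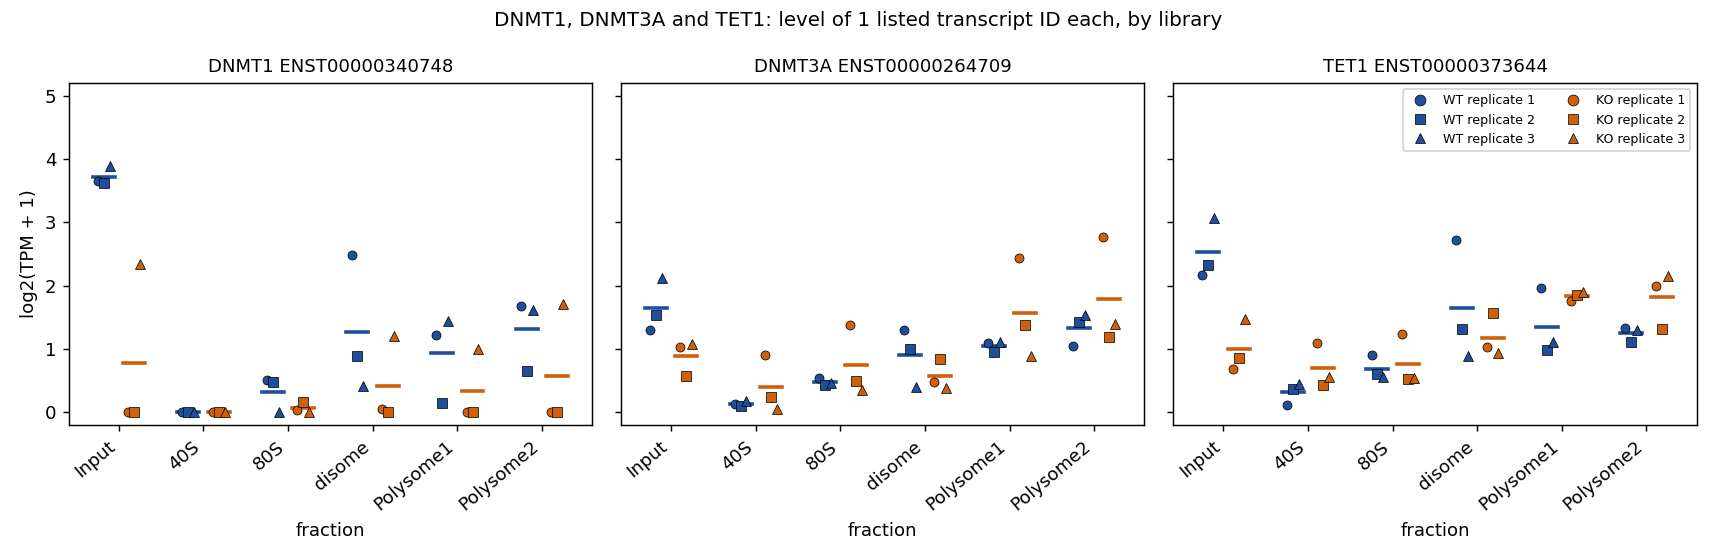
Level of the tested IDs of DNMT1, DNMT3A and TET1 in each library, as log2(TPM + 1) on the vertical axis, by fraction; blue points are WT, orange points are KO, shapes are replicates and bars are group means. In Input, DNMT1 lies at 11.3 to 13.9 TPM in WT and at 0, 0 and 4.08 TPM in KO, and TET1 at 3.52 to 7.41 TPM and 0.607 to 1.77 TPM.

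Across the 6 tested IDs, KO Input had 3 lower and 0 higher, where 20.0% of all rows were called, with a median log2 difference of -1.14, against -0.51 over all tested rows. On the TPM scale the gradient fractions gave no call between KO and WT. In 40S, 0 of 6 IDs were called by limma (0 at an unadjusted p under 0.05), where 0.0235% of all rows were called. In 80S 0 of 6 were called (0 unadjusted; 0.599% of all rows), and in disome 0 of 6 (0 unadjusted; 2.78% of all rows). In Polysome1 and in Polysome2 0 of 6 were called (1 unadjusted in each, ENST00000348286), where 5.42% and 5.52% of all rows were. With the culture as a random replicate block, the Polysome1 difference of ENST00000348286 was 2.92 and was called (SE 0.96, limma adjusted p = 0.04741), but it turned to -1.18 after ERCC scaling (limma adjusted p = 0.1661) and was 0.64 in KO replicate 3 alone.

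Scaling to the ERCC total gave other counts. All calls of listed IDs were then lower in KO: 3 of 6 in Input (13.6% of all rows called), 5 of 6 in disome (53.5%), 5 of 6 in Polysome1 (76.7%) and 6 of 6 in Polysome2 (76.4%), with 0 of 6 called in 40S and 80S. The median difference over all rows was then -2.02 in disome, -3.01 in Polysome1 and -3.40 in Polysome2. When KO replicate 3 was the sole KO culture, limma called 0 of 6 IDs in each of the 6 fractions, with 1 at an unadjusted p under 0.05, ENST00000353855 in Input (3.88, higher in KO replicate 3).

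Leaving out KO replicate 3 instead of the other KO cultures gave more calls. ENST00000328111 was then lower in KO by -6.73 in Input, -3.04 in 80S, -3.29 in Polysome1 and -3.68 in Polysome2 (limma adjusted p = 8.765e-07, 0.008433, 0.002824 and 0.0009766). ENST00000353855 was lower by -4.76 in Polysome1, -4.66 in Polysome2, -4.61 in disome and -3.39 in 80S (limma adjusted p = 0.0005241, 0.0004842, 0.001056 and 0.0116). ENST00000348286 was higher by 2.74 in Input, 4.06 in Polysome1 and 3.69 in Polysome2 (limma adjusted p = 0.006544, 0.0004047 and 0.0007633). These values describe KO replicates 1 and 2 against WT. KO replicate 3 lay on the same side of all WT libraries for ENST00000328111 in Input and for ENST00000348286 in Polysome1, and not in the others. In the same fit, DNMT1 ENST00000340748 and TET1 were lower in KO Input, by -3.72 and -1.75 (limma adjusted p = 6.797e-07 and 0.002367). For both, KO replicate 3 was below all WT Input libraries too. The share of all rows called in this fit is not given here. These calls are therefore not shown to be particular to DNMT3B or to the listed genes.

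**Figure D4:**
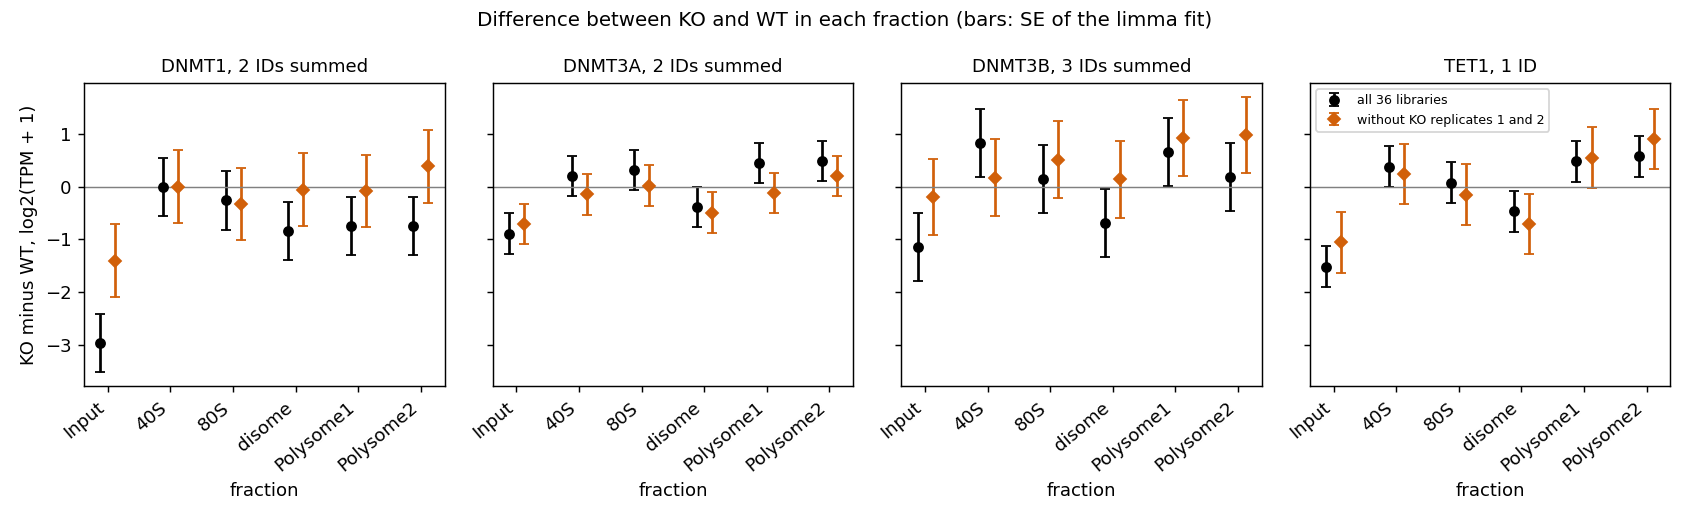
KO minus WT difference in log2(TPM + 1) on the vertical axis for each gene's listed IDs, summed where there are several, in each fraction; bars are the SE of the limma fit, black points use all 36 libraries and orange points leave out KO replicates 1 and 2. In Input the DNMT1 difference goes from -2.97 to -1.41 and the TET1 difference from -1.52 to -1.06, while the DNMT3B sum goes from -1.15 to -0.19.

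The distribution over the gradient was first read in WT against WT Input. In 40S, 4 of 6 IDs were lower and 0 higher, where 43.2% of all rows were called. The median difference over all rows was also negative, at -0.95 in the fit without KO replicates 1 and 2. WT 40S libraries had 8956 to 15949 transcripts at 1 TPM, against 34899 to 38389 in WT Input. The lower direction is therefore not shown to be particular to these genes. ENST00000328111 fell by 7.36 (SE 1.40, limma adjusted p = 0.000134) to 0.401, 0.981 and 0.250 TPM, and ENST00000340748 of DNMT1 fell by 3.72 (SE 0.54, limma adjusted p = 5.729e-06). TET1 fell by 2.21 and ENST00000264709 of DNMT3A by 1.51 (limma adjusted p = 6.066e-05 and 0.002619). The DNMT3A call ended without WT replicate 3 (-1.30, limma adjusted p = 0.06503), and after quantile normalization the TET1 difference was -0.79 and not called. ENST00000348286 was at 17.3, 27.3 and 7.42 TPM in WT 40S, and its difference of 0.45 from Input was not called (SE 1.06, limma adjusted p = 0.7788).

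In WT 80S, 3 of 6 IDs were lower than in Input, where 22.4% of rows were called: those of DNMT1 (-3.39), TET1 (-1.83) and DNMT3A (-1.17). In WT disome 1 ID, of DNMT1, was lower (-2.46; 14.8% of rows called). In WT Polysome1 the IDs of DNMT1 (-2.78) and TET1 (-1.17) were lower (12% of rows called). In WT Polysome2, DNMT1 (-2.41) and TET1 (-1.28) were lower and ENST00000353855 was higher, by 4.96 (SE 1.58, limma adjusted p = 0.03673), where 12.1% of rows were called. Several of these calls were lost when 1 culture was left out, while the differences kept their sign. Leaving out a KO culture changes only the shared spread of these WT differences. The call of ENST00000353855 ended without any 1 of the WT cultures or KO replicate 1 (4.31 to 5.44, limma adjusted p = 0.06128 to 0.3102). The DNMT3A call in 80S ended without any 1 of the WT cultures (-1.38 to -0.93, limma adjusted p = 0.08222 to 0.3053). TET1 was not called in 80S without WT replicate 3 (-1.49), in Polysome1 without WT replicate 2, WT replicate 3 or KO replicate 2 (-1.17 to -0.78), or in Polysome2 without the same cultures (-1.31 to -1.03). DNMT1 was not called in disome without WT replicate 3 (-1.95) or in Polysome2 without WT replicate 2 (-2.12). The DNMT3B sum was lower than in Input in WT 40S (-3.78) and 80S (-2.39), the latter not called without WT replicate 2 (-2.48) or WT replicate 3 (-2.02), and its differences of -1.40 in Polysome1 and -0.54 in Polysome2 were not called (limma adjusted p = 0.175 and 0.6996).

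Libraries of 1 culture were also fitted with culture as a random replicate block, which kept each difference and lowered its error. The block used 1 correlation, 0.326, for both genotypes. Within cultures, deviations from the group means had a median r of 0.106 in WT and 0.572 in KO. The lowered error of all WT differences with the block thus rests in part on the KO cultures. Without the block none of the following WT differences was called, and the share of all rows called with it is not given here. ENST00000353855 was then also higher than in Input in WT 80S, disome and Polysome1, by 3.08, 3.97 and 4.56 (limma adjusted p = 0.02259, 0.005694 and 0.001958). ENST00000328111 was lower there, by -3.75, -3.68 and -2.76 (limma adjusted p = 0.00298, 0.004856 and 0.03807). The DNMT3B sum was lower in WT disome by -1.59 (limma adjusted p = 0.02792). So in WT the 2 IDs went in opposite directions between Input and each of these fractions, while the sum of all 3 listed IDs was 262 TPM in Input and 50.6, 96.0 and 99.7 TPM in 80S, disome and Polysome1.

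In KO no ID was called in any fraction against KO Input. In KO 40S limma called 0 of 6 (1 at an unadjusted p under 0.05; 0.682% of all rows called), in KO 80S 0 of 6 (0 unadjusted) and 0.00% of all rows (2218 unadjusted), and in KO disome 0 of 6 (0 unadjusted; 0.00196% of rows). In KO Polysome1 0 of 6 were called (1 unadjusted; 0.0118% of rows) and in KO Polysome2 0 of 6 (2 unadjusted; 0.660% of rows). With culture as a random replicate block, ENST00000328111 and the DNMT3B sum were lower in KO 40S than in KO Input, by -3.15 and -1.80 (limma adjusted p = 0.04255 and 0.04). In KO replicate 3 alone these were -7.01 and -3.41 (limma adjusted p = 0.01308 and 0.03725), and no other listed ID was called against KO Input in that setting. Since KO Input replicates 1 and 2 stood apart, KO fractions against KO Input compare with libraries unlike WT Input.

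Among ribosome-bound fractions, which needs no Input library, the heavier end held more DNMT3B. Between 80S and Polysome2 its summed level was higher in Polysome2 in 6 of 6 cultures, by 1.47 to 2.33 on the log2 scale. The share of all rows that were higher in 6 of 6 cultures was not counted. In WT the sums went from 63.5, 55.7 and 32.7 TPM to 197, 226 and 129 TPM, and in KO from 60.5, 36.7 and 70.2 TPM to 169, 141 and 356 TPM. The differences were 1.86 in WT and 1.90 in KO (SE 0.64 each, limma adjusted p = 0.05372 and 0.1926), not called. They were called with culture as a random replicate block (SE 0.54 each, limma adjusted p = 0.01062 and 0.04169). The WT difference was also called when KO libraries were left out, which changes only the shared spread: without KO replicate 1, without KO replicate 3 and without KO replicates 1 and 2 (limma adjusted p = 0.02295, 0.02327 and 0.01527). In KO replicate 3 alone the KO difference was 2.33. The test of the difference between genotypes gave 0.05 (SE 0.91, limma adjusted p = 1).

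DNMT3A and TET1 were also higher in Polysome2 than in 80S in 6 of 6 cultures, by 0.50 to 1.40 for the DNMT3A sum and by 0.42 to 1.61 for TET1. In WT the median difference over all rows was positive too, at 0.23 in the fit without KO replicates 1 and 2. The shared direction is therefore not shown to be particular to these genes. DNMT1 was higher in 4 and lower in 2, the latter KO replicates 1 and 2, where it was listed at 0 in Polysome2. With the replicate block, the DNMT3A sum was called in WT, at 0.86 (limma adjusted p = 0.03773). Without the block, 0 of 6 IDs were called between Polysome2 and 80S in WT (1 at an unadjusted p under 0.05; limma called 13.1% of all rows) and 0 of 6 in KO (2 unadjusted; 1.45%). Between Polysome2 and Polysome1, 0 of 6 were called in WT (0 unadjusted; 0.468%) and 0 of 6 in KO (0 unadjusted; 0.00196%).

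Whether a fraction's difference from Input itself differed between KO and WT was tested as an interaction. In 40S, 2 of 6 IDs were called, both positive (5.17% of all rows called): DNMT1 by 2.94 and TET1 by 1.90 (limma adjusted p = 0.0195 and 0.03837). In 80S 1 was called, DNMT1 by 2.68 (limma adjusted p = 0.04431; 3.88% of rows). In Polysome1 and Polysome2 TET1 was called, by 2.0 and 2.10 (limma adjusted p = 0.04321 and 0.03472; 2.68% and 2.31% of rows). In disome 0 of 6 were called (2 at an unadjusted p under 0.05; limma called 3.60% of rows), and between Polysome2 and 80S 0 of 6 (0 unadjusted; 0.0901%). Each interaction with Input contains the lower KO Input level. DNMT1 was listed at 0 in 40S of both genotypes, so its 40S interaction equals the Input difference with the sign turned. In 80S it reached at most 0.42 TPM, and KO minus WT was -0.26 there. Its 80S interaction is therefore mainly the Input difference too.

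For TET1 the Polysome2 level was below Input in the 3 WT cultures and above it in the 3 KO cultures. Without KO replicates 1 and 2 the TET1 interaction in Polysome2 was 1.96 (SE 0.82, limma adjusted p = 0.6316), near the value from all libraries but not called. That in Polysome1 was 1.61 (SE 0.82, limma adjusted p = 0.9216). The called interactions kept their sign but lost the call when single cultures were left out. Each call ended without any 1 of WT replicate 2, WT replicate 3, KO replicate 1 or KO replicate 2. Those of DNMT1 also ended without WT replicate 1. The values were then 2.24 to 3.04 for DNMT1 and 1.54 to 2.28 for TET1. Without KO replicates 1 and 2, which leaves 1 KO library, the interaction of the DNMT1 sum went from 2.97 to 1.41 in 40S. In 80S it went from 2.71 to 1.08, and neither was called. With the replicate block, the DNMT1 sum was also called in Polysome1, in Polysome2 and in disome, where it was 2.23, 2.22 and 2.13 (limma adjusted p = 0.03496, 0.0394 and 0.03645), and TET1 in 80S, at 1.60 (limma adjusted p = 0.04295). The block also called ENST00000328111 in 40S, at 4.20, and ENST00000353855 in disome, at -4.83 (limma adjusted p = 0.03781 and 0.04158).

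The transcripts most like the leading IDs were found by Pearson's r over the 12 group means of log2(TPM + 1), among 12002 tested transcripts with a mean of at least 5 TPM. For ENST00000328111 of DNMT3B they were ENST00000346178.8 (r = 0.997) and ENST00000369064.7 (r = 0.988). For ENST00000340748 of DNMT1 they were ENST00000510025.6 (r = 0.972) and ENST00000546862.5 (r = 0.965). The 12 means share cultures and the contrast between Input and the other fractions, and these r values describe likeness only.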

How the data were processed

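The authors deposited 1 table of TPM for 223367 versioned Ensembl transcript IDs and 92 ERCC spike-in IDs in 36 libraries. Per the submitters' processing notes it was made with kallisto and sleuth on hg19. Their versions are not stated in the sources used here. Per the labels' protocols, RNA was extracted with Trizol and libraries came from a stranded poly(A) kit. Column names were matched to the sample descriptions, and 0 columns were left unused. TPM keeps no depth, so no counting interval is given.

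Without the ERCC rows, 51052 transcripts reached 1 TPM in 3 or more libraries and were tested, and 3 rows with the summed listed IDs of DNMT1, DNMT3A and DNMT3B were added. log2(TPM + 1) was fitted with limma 3.58.1 (variance trend) in R 4.3.3, with 12 group means over 36 libraries (24 residual degrees of freedom), and p-values were adjusted over all rows within each of 26 comparisons. The fit treats the 6 libraries of a culture as independent and so overstates the replication of KO against WT. Shares were compared by exact permutation tests with Python 3.11.15 and scipy 1.17.1. The model was tested on simulated data with independent noise in each library. The simulation held no correlation within cultures and no KO cultures that stood apart, so it does not bear on those features.

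All listed members are named. The rule for like transcripts took the 2 with the highest r for the leading IDs of DNMT1 and DNMT3B. The rule for the members is by name alone, but members and lists were proposed with earlier results of these data known. The planned list of other DNA methylation genes, the cell type markers and RBPMS were not analysed here: of 59792 genes in the naming table, 0 had an Ensembl transcript ID.

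Sample descriptions give a genotype and number to all 6 libraries of a culture. Deviations from the group means correlated within KO cultures at 0.294 to 0.833 (45 of 45 pairs above 0.1) and within WT cultures at -0.146 to 0.502 (23 of 45). WT and KO libraries of the same number and fraction correlated at -0.709 to 0.107 (1 of 18 above 0.1), so the number does not pair the genotypes. Culture was therefore a random replicate block, with 1 consensus correlation (0.326) for both genotypes.

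Alternatives were a pseudocount of 0.1, no filter, a filter of 10 TPM, quantile, median-of-ratios and ERCC scaling, library weights, fits of only the groups compared, replicate blocks, an exact permutation test and cultures left out.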

Additional observations from a re-analysis of the deposited data

Results flagged for a closer look

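The difference between KO and WT in a fraction's distance from Input passed the interaction test (limma) for DNMT1 and TET1. For DNMT1 ENST00000340748 it was 2.94 in 40S and 2.68 in 80S (limma adjusted p = 0.0195 and 0.04431), and for the summed DNMT1 IDs 2.97 and 2.71 (limma adjusted p = 0.02092 and 0.04675). WT Input held 11.3 to 13.9 TPM of ENST00000340748, KO Input 0, 0 and 4.08 TPM, and 40S a listed 0 in all 6 libraries. In 80S it reached at most 0.42 TPM. The 40S and 80S values thus mainly restate the Input difference of -2.94 and are not separate results.

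For TET1 ENST00000373644 it was 1.90 in 40S, 2.0 in Polysome1 and 2.10 in Polysome2 (limma adjusted p = 0.03837, 0.04321 and 0.03472). TET1 was lower in Polysome2 than in Input in 3 of 3 WT cultures and higher in 3 of 3 KO cultures. The Input libraries of KO replicates 1 and 2 resembled WT gradient libraries more than WT Input, and the gradient libraries of these cultures stood apart as well. The part of these cultures in the interactions was not tested beyond leaving them out. With 1 KO library left in each fraction, the TET1 value in Polysome2 was 1.96 and was not called (limma adjusted p = 0.6316).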

How the results depend on the processing

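For 258 results, 3944 alternative values were computed: 3608 stayed on the same side of the threshold, 138 lost and 188 gained a call, and 10 reversed. The first number includes 149 values, of 81 results, that changed sign while never called. It also includes all values of the share tests, which could not be called at this group size. The exact permutation test could not give a call either, so its 50 unchanged and 4 lost values were fixed by the main call. These values say nothing about stability. The 10 reversals, KO against WT, came with ERCC scaling, which moved the median of all transcripts in Input from -0.51 to -1.37. In disome, Polysome1 and Polysome2 that median was -2.02, -3.01 and -3.40 after scaling. All 10 reversals lay in these fractions and had not been called before scaling, so no called direction was reversed. They were -2.19 in disome and -2.70 in Polysome2 for ENST00000348286, -2.68 and -3.60 in Polysome1 and Polysome2 for ENST00000264709, -2.72 and -3.27 for TET1, -2.80 and -3.53 for the DNMT3A sum and -3.58 and -5.13 for the DNMT3B sum. It also made the DNMT3B sum in Input (-4.11) and the DNMT1 sum in Polysome2 (-3.80) calls. Library weights gained calls for the DNMT3A sum (-1.02) and the DNMT3B sum (-1.57) in Input and the DNMT1 sum in Polysome2 (-1.21). The Input call of TET1 was lost with quantile normalization (-0.82), median-of-ratios scaling (-1.0), only the groups compared (-1.52), an exact permutation test (-1.52, with p = 0.1 the smallest possible) and without KO replicates 1 and 2 (-1.06). That of the DNMT1 sum was lost with only the groups compared (-2.97), the exact permutation test (-2.97) and without those cultures (-1.41). In WT against Input, quantile normalization ended the 40S calls of TET1 (-0.79) and the DNMT3A sum (-0.29; -0.75 with median-of-ratios scaling). In WT Polysome2 against Input, TET1 was not called with a pseudocount of 0.1 (-1.71), quantile normalization (-0.98) or median-of-ratios scaling (-1.0), nor the DNMT1 sum with a pseudocount of 0.1 (-3.07). With single replicates left out, TET1 ranged from -1.75 to -1.25 in Input and from -1.49 to -1.03 in WT Polysome2 against Input. The DNMT1 sum ranged from -1.31 to -0.46 in Polysome2 and from -2.63 to -2.17 in WT Polysome2 against Input. The cause of these changes was not tested. The culture block gained 23 calls, each given in the results for the ID or its gene's sum, and lost none. A replicate block on the number shared by WT and KO gained 3, among them ENST00000348286 in Polysome1 at 2.92 (-1.18 with ERCC scaling). Levels under 1 TPM, such as those of DNMT3L, are compressed by the pseudocount and limit what can be read at the low end.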
